A study of Homo sapiens with 32 samples.

Results

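LIN28A, LIN28B and L1TD1 are RNA-binding genes of undifferentiated cells, and all of their m6A peaks in the deposited count table were taken, whatever their values. These are 21 of the 26104 merged peaks, in 3 of the 7978 genes that have one. The human embryonic stem cell lines H1 and MEL1 were sampled undifferentiated (S0) and in directed differentiation in culture, at S3, the posterior foregut, at S4, the pancreatic progenitor, and at S6, the immature β-like cell. The labels name no altered gene in either line, and each line at each stage was sampled in 2 replicates, which gave 16 RNA preparations. From each preparation an input library of fragmented mRNA and a library of what an m6A antibody pulled down from it (the IP) were sequenced. Nothing in the labels names separate cultures, while the paper describes its samples as biologically independent. Within 1 line, p-values measure the spread between these preparations. Fits over both lines give the lines a shared stage change, so their spread also holds differences between the lines in that change.

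LIN28A and LIN28B are related proteins that bind the precursors of let-7 microRNAs and stop their processing, and mature let-7 in turn represses LIN28 mRNAs and many growth genes. L1TD1 is an RNA-binding protein that derives from the coding sequence of a LINE-1 element and associates with LIN28A in human embryonic stem cells. N6-methyladenosine, or m6A, is a methyl mark on mRNA that is read here as IP reads relative to input reads at the same site.

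The mature let-7 sequences below are shown because let-7 is the shared partner of the LIN28 proteins, and 9 human family members were found in the RefSeq table. Capitals mark the seed (bases 2 to 8), which is identical in all 9. Mature let-7 itself was not measured in these libraries.
hsa-let-7a-5p: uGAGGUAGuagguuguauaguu
hsa-let-7d-5p: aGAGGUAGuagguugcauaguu
hsa-let-7g-5p: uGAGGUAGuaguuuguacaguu
hsa-miR-98-5p: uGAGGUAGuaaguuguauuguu
The letters GGAG, searched on the RNA strand alone because LIN28 proteins are known to bind such a stretch in the precursor, occurred in 9 of the 12 let-7 family hairpins and in 43.4% of the 1560 hairpins in the table.

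LIN28A (ENSG00000131914.10) and L1TD1 (ENSG00000240563.1) had 8 merged peaks each and LIN28B (ENSG00000187772.7) had 5, against a median of 2 per gene. Peaks are named by the position within the gene that the table lists, because the sources used here give no chromosome coordinates or peak widths with it. The level of a gene is the sum of its input reads over its peaks, in CPM, the count scaled to the total of its library. Levels are not compared between the 3 genes, which differ in length and in the part covered by peaks.

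Input libraries held 2652830 to 6879256 counts and IP libraries 2378881 to 15674899, and the lowest totals were those of the 2 MEL1 S4 IP libraries. The share of mitochondrial transcripts was 26.4% to 27.5% of the input in H1 at S0 and S3 and 32.5% to 41% in MEL1 at S0, and 11.6% to 17.6% in the other groups. As CPM of the other transcripts, levels at S0 are therefore higher, as for L1TD1 in MEL1 (2626 and 2090 in place of 1549 and 1411 CPM). Of 13 genes of undifferentiated cells 7 had counts, and their summed level was 2773 to 2821 CPM in H1 at S0 and 934 to 977 CPM at S6, and 1945 to 2202 CPM in MEL1 at S0 and 335 to 367 CPM at S3, S4 and S6. All 8 posterior foregut genes were called higher at S3 than at S0, where 28.8% of all genes were called in either direction. Of 11 endocrine and β-cell genes 5 had counts and 4 were called higher at S6, against S0 (31.4% of all genes called), while the hormone genes of that list were not analysed here. Of 6 genes of liver-type endoderm 4 had counts, AFP and APOA1 among them, and these summed to 460 to 466 CPM in H1 at S3 and to 29660 to 31380 CPM in MEL1. At S4 the same sums were 201 to 232 CPM in H1 and 56140 to 59200 CPM in MEL1. Of 7 genes of pancreatic progenitors 4 had counts, which summed to 117 to 140 CPM in H1 at S4 and to 39.2 to 41.2 CPM in MEL1, and 3 were called higher at S4 against S0 (31.2% of all genes called). From S3 to S4 their changes ran from -0.69 (PDX1) to 0.75 (SOX9, adjusted p = 0.555, the lowest of the 4 in edgeR's test). At S6 the liver-type sums were 106 to 118 CPM in H1 and 2608 to 2672 CPM in MEL1. The MEL1 libraries at S3, S4 and S6 thus carried higher levels of liver-type genes than the H1 libraries of the same stage labels, and the part of this in the results on MEL1 was not tested. Some 4.16% and 2.92% of well-covered peaks (50 or more input reads) had no IP read in the 2 H1 S4 libraries, against 0.123% to 0.356% in the other H1 libraries and 1.2% to 5.76% in MEL1.

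All 3 genes had lower input levels at S3 than at S0 in both lines, and all 3 were called lower when the lines were fitted together. L1TD1 fell the most, to 9.22% of its S0 level in H1 and 1.5% in MEL1, LIN28A kept an intermediate level in H1 and a low one in MEL1, and LIN28B fell in MEL1 but stayed near its S0 level in H1. A gene was called when it changed 2-fold or more and its p in edgeR's quasi-likelihood test, adjusted over 7973 genes by the Benjamini-Hochberg method, was under 0.1. In that comparison 28.8% of all genes were called, and 13.8% of all genes were called lower. Because these are bulk samples, fewer cells that express a gene and less RNA per cell cannot be told apart.

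**Figure D1:**
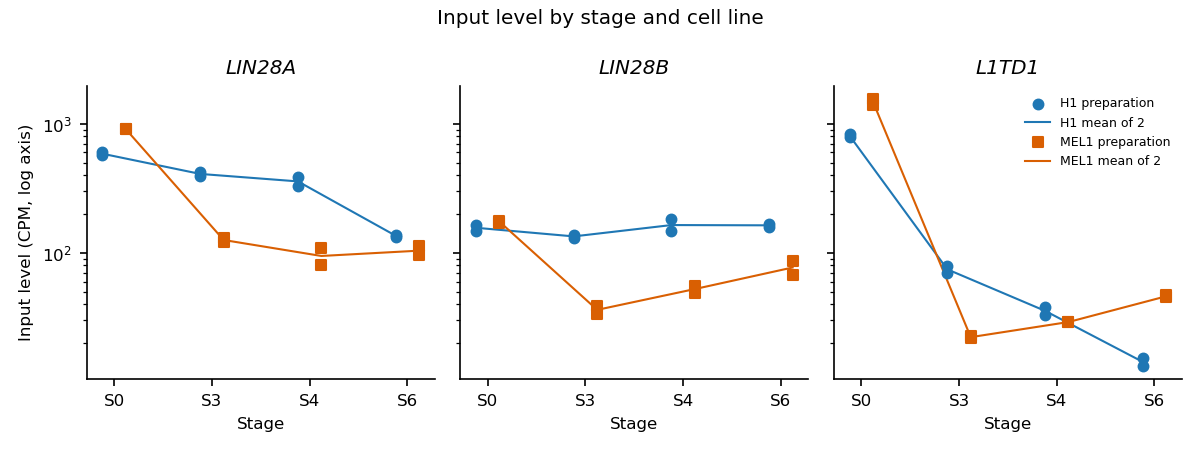
Input level in CPM on a log axis for the 3 genes at S0, S3, S4 and S6. Points are the 16 preparations, circles for H1 and squares for MEL1, and lines join the means of 2. L1TD1 drops from 791 CPM or more at S0 to 79.4 CPM or less afterwards, and LIN28B in H1 stays between 130 and 182 CPM at every stage.

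L1TD1, which in undifferentiated cells sits in RNA-protein particles with LIN28A, had an input level of 828 and 791 CPM in the H1 preparations at S0. It was at 69.8 and 79.4 CPM at S3, 38.4 and 32.8 CPM at S4 and 15.3 and 13.4 CPM at S6. In H1 every stage therefore lay below the one before it, with no overlap between neighbouring stages, and S6 held 1.77% of the mean S0 level. MEL1 began higher, at 1549 and 1411 CPM, and was at 21.7 and 22.7 CPM at S3, 29 and 29.2 CPM at S4 and 47 and 45.2 CPM at S6. There the lowest stage was S3, at 1.5% of the S0 level, and the later stages lay above it without overlap, reaching 3.12% at S6.

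With both lines together, the L1TD1 input level changed at S3 against S0 by -4.66 on the log2 scale (SE 0.59, adjusted p = 2.0e-05 from edgeR). The change was -3.58 (SE 0.14) in H1 alone and -6.48 (SE 0.20) in MEL1 alone, and both were called, where 22.9% and 43% of all genes were. From S3 to S4 the level fell again in H1 (-1.35, SE 0.15), and so it did from S4 to S6 (-1.28, SE 0.19). In MEL1 the same steps gave 0.55 and 0.66 (adjusted p = 0.0842 and 0.0203 from edgeR), each under a 2-fold change and so not called. At S6 against S0 the changes were -6.21 in H1 and -5.27 in MEL1, and these fits called 28.5% and 40.3% of all genes.

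LIN28A, the LIN28 protein that acts mainly in the cytoplasm, had input levels of 602 and 572 CPM in H1 at S0, 397 and 422 CPM at S3 and 385 and 331 CPM at S4. It was at 133 and 139 CPM at S6. In H1 each stage thus lay below the one before it without overlap, and the S6 values were the lowest. In MEL1 the level was 910 and 905 CPM at S0, 121 and 131 CPM at S3, 109 and 80.1 CPM at S4 and 112 and 96 CPM at S6. In MEL1 13.9% of the S0 level was left at S3, against 69.8% in H1 at the same stage, and the MEL1 values at S4 and S6, at 10.4% and 11.5%, lay below both S3 values.

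The change of LIN28A at S3 against S0 was -1.99 on the log2 scale over both lines (SE 0.43, adjusted p = 0.002 from edgeR). In H1 alone it was -0.66 (SE 0.13, adjusted p = 0.0016), less than 2-fold and not called, and in MEL1 alone it was -3.27 (SE 0.18). At S4 against S0 it was called in H1 alone (-1.11, SE 0.13, adjusted p = 2.3e-05, edgeR), where 28.6% of all genes were. From S4 to S6 the level changed by -1.40 in H1 (SE 0.14), which was called, and by 0.14 in MEL1 (SE 0.18, adjusted p = 0.642), which was not. At S6 the levels of both lines lay between 96 and 139 CPM, and the change from S0 was -2.51 in H1 and -3.39 in MEL1.

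LIN28B, the LIN28 protein that is often found in the nucleus, lay higher in H1 than in MEL1 at each stage after S0, without overlap. In H1 its level was 166 and 147 CPM at S0, 130 and 139 CPM at S3, 182 and 147 CPM at S4 and 167 and 160 CPM at S6. At S3 both values lay below the S0 values, and at S4 and S6 the means were 105% and 104% of the S0 mean in CPM. As CPM of the transcripts other than mitochondrial ones, which took a larger share at S0, these means were 92.3% and 86.7% of the S0 mean, so the direction depended on the scale. In MEL1 it was 171 and 178 CPM at S0, then 38.7 and 33.8 CPM at S3, 55.8 and 49.2 CPM at S4 and 86.3 and 67.9 CPM at S6. The MEL1 values thus dropped to 20.7% of S0 at S3 and were higher at each later stage without overlap, at 30.1% and 44.2% of S0.

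Over both lines LIN28B changed by -1.51 at S3 against S0 (SE 0.35, adjusted p = 0.0031 from edgeR). That call rested on MEL1, where the change was -2.68 (SE 0.20), against -0.36 in H1 (SE 0.15, adjusted p = 0.0805), which is under 2-fold. None of the H1 comparisons called LIN28B, and its change at S6 against S0 there was -0.34 (SE 0.15) on the scale of the fit. In MEL1 it changed by 0.69 from S3 to S4 (adjusted p = 0.0311) and by 0.55 from S4 to S6 (adjusted p = 0.0573), neither of them a 2-fold change. At S6 against S0 LIN28B was -0.99 over both lines (SE 0.34, adjusted p = 0.0263), just short of the 2-fold limit, and -1.44 in MEL1 alone, which was called. With library sizes that left out mitochondrial transcripts it was -1.01 over both lines and was called (adjusted p = 0.0255, edgeR).

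Between successive later stages 0 of the 3 genes were called over both lines by edgeR, from S3 to S4 and from S4 to S6, where 1.84% and 5.18% of all genes were. At an unadjusted p under 0.05 the count was also 0 in both steps, and DESeq2 called 0. In H1 alone 1 gene was called from S3 to S4 and 2 from S4 to S6, against backgrounds of 7.43% and 9.33%. In MEL1 alone 0 were called in either step, with 2 genes at an unadjusted p under 0.05 in each and backgrounds of 9.5% and 15.5%. Against S0, 3 of 3 genes were called at S4 and 2 of 3 at S6, where 31.2% and 31.4% of all genes were called, but LIN28B at S4 was -0.33 in H1 alone (adjusted p = 0.0941).

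**Figure D2:**
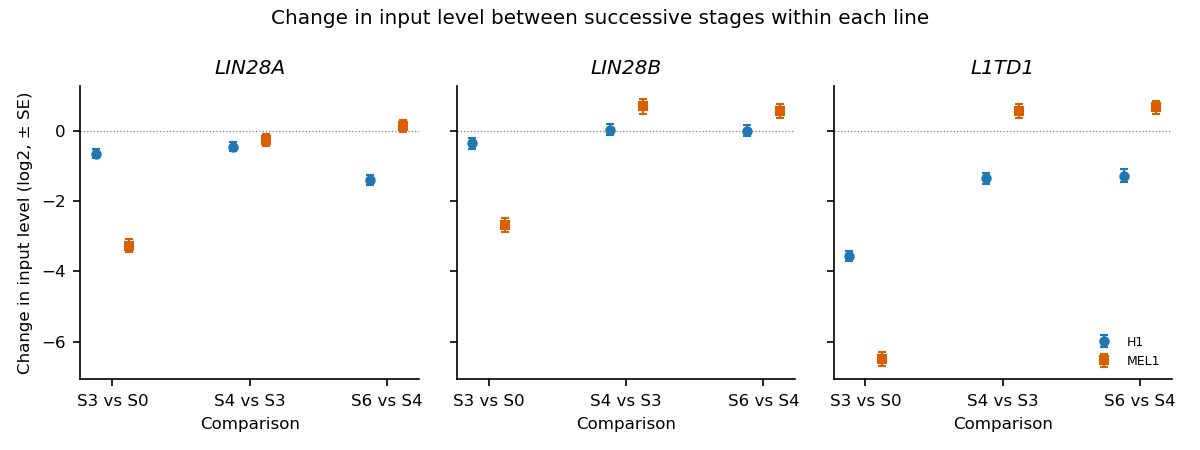
Change in input level between successive stages, as log2 fold change with its standard error, fitted within H1 (circles) and within MEL1 (squares). The first step is larger in MEL1 for each gene (-3.27, -2.68 and -6.48 against -0.66, -0.36 and -3.58), and the last step is below 0 for LIN28A and L1TD1 in H1 but not in MEL1.

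The difference between the lines was tested directly, as the MEL1 change minus the H1 change in a fit that gave every stage of a line its own mean. At S3 against S0 it was -2.58 for LIN28A (SE 0.23), -2.29 for LIN28B (SE 0.26) and -2.87 for L1TD1 (SE 0.23). All 3 were called, with adjusted p of 3.4e-08, 7.4e-07 and 8.4e-09 from edgeR, in a comparison that called 34% of all genes. At S4 against S0 the differences for LIN28A and LIN28B were called (-2.37 and -1.62) and that for L1TD1 was -0.96 (adjusted p = 0.0035), under 2-fold, with 36% of all genes called. At S6 only LIN28B was called (-1.05, SE 0.25, adjusted p = 0.0037, edgeR), while LIN28A gave -0.83 and L1TD1 0.99, and 25.1% of all genes were called. For L1TD1 the sign had turned by S6. The call for LIN28B at S6 was lost without MEL1_S6 replicate 2, which left 0 genes called, and 2 were called without H1_S6 replicate 1.

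Most other markers of undifferentiated cells also had a larger decrease in MEL1 at S3. At S3 against S0, 4 of the 7 measured genes of that list were called lower in H1 and 7 of 7 in MEL1, where 22.9% and 43% of all genes were called in either direction, with a median change of -2.10 in H1 and -4.12 in MEL1, against -0.01 and -0.06 over all genes. DNMT3B, a DNA methyltransferase, changed by -3.02 in H1 and -4.40 in MEL1. ZFP42, a zinc finger protein of stem cells, went the other way, with -2.10 in H1 and -1.40 in MEL1. SALL4, another zinc finger factor of stem cells, changed by -0.25 in H1 (adjusted p = 0.0929 from edgeR) and -1.18 in MEL1. SOX2, which is also a factor of foregut and neural cells, changed by -0.69 in H1 and -6.03 in MEL1, and its H1 mean was 860 CPM at S3 and 1460 CPM at S4. The liver-type sums differed between the lines at S3 as given above, and the 8 foregut genes summed to 1082 to 1131 CPM in H1 and 2932 to 3110 CPM in MEL1. Of these, 8 were called higher at S3 in H1 and 6 in MEL1, where CXCR4 (-0.21) and SOX17 (1.55), the latter named after its value was seen, were not called. The part of cell composition in the gap was not tested.

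The genes whose input levels were most like those of each member over the 16 libraries were listed for description, among 5559 genes that averaged 10 CPM or more. All points share the libraries' depth and stage, so Pearson's r carries no test here. LIN28A ran most closely with TRMT10C (r = 0.961), a subunit of mitochondrial RNase P, then ALDH1B1 (r = 0.952) and RBMXL1 (r = 0.952). LIN28B ran with PDPN (r = 0.975), which encodes podoplanin, CAPRIN1 (r = 0.969), a stress granule protein, and CDCA7L (r = 0.969). L1TD1 ran with SINHCAF (r = 0.979), a subunit of a SIN3 histone deacetylase complex, ITGA6 (r = 0.97), an integrin of stem cells, and PHC1 (r = 0.962), a Polycomb protein. Between the members r was 0.84 for LIN28A with L1TD1, 0.724 for LIN28A with LIN28B and 0.479 for LIN28B with L1TD1. PDPN had the same order of lines as LIN28B, with a change at S3 against S0 of -0.75 in H1 and -5.59 in MEL1.

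The let-7 pathway around LIN28 is given by its processing genes, its decay genes and its targets, beside the 28.8%, 31.2% and 31.4% of all genes called at S3, S4 and S6 against S0. Of 10 genes that make or load let-7, 7 had counts and 0 were called at S3 against S0 over both lines, with a median of 0.05 against -0.02 over all genes. DICER1, which cuts the let-7 precursor, changed by -0.81 (adjusted p = 0.0097) and DGCR8, the partner of DROSHA, by 0.81 (adjusted p = 0.0106), both under 2-fold in edgeR's test. Within the lines the calls at S3 ran in opposite directions, with 2 higher in H1 (DGCR8 at 1.07 and AGO4 at 1.21) and 2 lower in MEL1 (DICER1 at -1.44 and AGO2 at -1.07), beside 22.9% of all genes called in H1 alone and 43% in MEL1 alone. At S4 against S0, 2 were called lower over both lines, AGO2 (-1.06) and DROSHA (-1.49), the latter named after its value was seen. At S6 against S0, 1 was called, AGO2 (-1.38, SE 0.29), an Argonaute that carries the mature microRNA. In H1 alone neither of these genes was called at S4 (AGO2 -0.53, DROSHA -0.80) or at S6 (AGO2 -0.79), and the 1 call was AGO4, higher at S4 (1.02), beside 28.6% and 28.5% of all genes called. In MEL1 alone 3 were called lower at S4 (AGO2, DROSHA and DICER1 at -1.63, -2.67 and -1.30) and 1 at S6 (AGO2 at -2.02), beside 45.5% and 40.3% of all genes. DROSHA averaged 1.11 CPM in MEL1 at S4 and 5.93 CPM at S0, so its changes at S4 rest on few reads. Of 4 genes of the pathway that tails and degrades the let-7 precursor bound by LIN28, 3 had counts and 0 were called at S3 or S6. TUT7, a terminal uridylyl transferase, changed by -0.45 at S3 (adjusted p = 0.032) and TRIM25 by 0.02.

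Of 19 known let-7 targets other than the LIN28 genes, 16 had counts. At S3 against S0, 4 were called lower and 0 higher over both lines, with a median of -0.39 against -0.02 over all genes. In H1 alone 3 were called lower and 0 higher (median -0.285, 22.9% of all genes called). In MEL1 alone 6 were called lower and 1 higher (median -0.64, 43% of all genes called). At S4 against S0, 4 were called lower and 1 higher over both lines. There H1 alone had 2 lower and 0 higher and MEL1 alone 7 lower and 2 higher (28.6% and 45.5% of all genes called). At S6 against S0, 3 were called lower and 1 higher over both lines, with a median of -0.52 against 0.03. There H1 alone had 4 lower and 1 higher and MEL1 alone 5 lower and 2 higher (28.5% and 40.3% of all genes called). Over both lines, the 4 called lower at S3 were MYC, CCND2, CDC25A and TRIM71, and the 3 called lower at S6 were HMGA1, CDC25A and TRIM71, all but HMGA1 named after their values were seen. The 4 at S3 fell further in MEL1 than in H1, as did MYC (147.5 to 61.8 CPM in H1, 132 to 3.78 CPM in MEL1). Among the 6 with the most input reads, HMGA1, a chromatin protein, changed by -0.98 at S3 (adjusted p = 6.6e-04), under 2-fold, and by -1.99 at S6 (SE 0.19, adjusted p = 1.1e-06, edgeR). CCND1, a D-type cyclin, changed by -0.48 at S3 (adjusted p = 0.596) and by 2.41 at S6, the one called higher over both lines. At S3 the lines went opposite ways, with a mean CCND1 level of 161 CPM at S0 and 262 CPM at S3 in H1, against 256 and 46 CPM in MEL1. IGF2BP2 and IGF2BP1, both mRNA-binding proteins, changed by -0.01 and -0.03 at S3, and ARID3A and ARID3B, both transcription factors, were not called at S3 or S6 over both lines.

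On the m6A side the 3 genes stood far apart from each other. LIN28A had hardly any IP signal for its abundance, LIN28B had less IP than input, and L1TD1 had a plain ratio above 0. The ratio below is the log2 of IP CPM over input CPM in a preparation, with 0.5 added to each count. It is relative to the other peaks of the same libraries, so a value of 0 does not mean the absence of m6A.

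**Figure D3:**
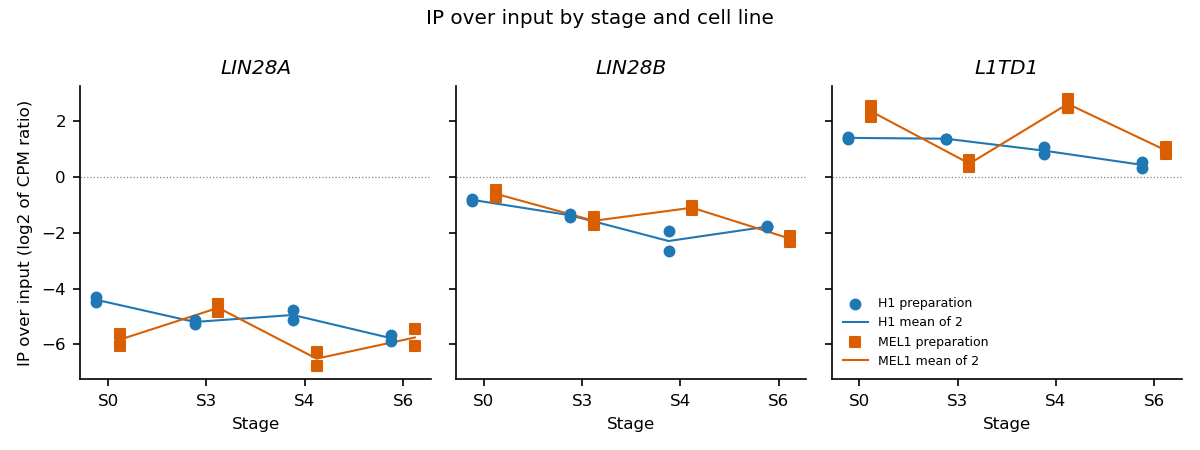
Log2 ratio of IP CPM to input CPM, summed over the peaks of each gene, at each stage. Points are preparations (circles H1, squares MEL1), lines join the means of 2 and the dotted line marks equal CPM. All 16 values of LIN28A lie between -6.77 and -4.31, all of LIN28B lie below 0, and all of L1TD1 lie above 0.

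LIN28A had 2632 and 2611 input reads in H1 at S0 but 341 and 362 IP reads, which gives log2 ratios of -4.31 and -4.49. In MEL1 at S0 it had 6257 and 4843 input reads and 171 and 276 IP reads, with ratios of -6.05 and -5.61. Its highest ratio in any preparation was thus -4.31, and its median at S0 (-5.05) was below those of all but 0.589% of genes, whose median was 1.41. At S3, S4 and S6 the shares of genes below it were 0.903%, 0.677% and 0.414%.

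Each of the 8 LIN28A peaks had less IP than input at each of the 4 stages in the fit over both lines, and all 8 passed the thresholds at every stage. Over all peaks the share that did so in that direction was 24.9%, 31%, 32.1% and 34.6% in the order of the stages. For the gene as a whole the fitted difference at S0 was -6.39 (SE 0.54, adjusted p = 1.2e-10 from edgeR), and 24.7% of all genes were called below their input there. The fitted values use TMM factors and a model over both lines, so they differ from the plain ratios. The peak at 2651 held the most input reads of the 8 in 11 of the 16 preparations, and at S0 its IP reads were 189 and 224 in H1 and 27 and 52 in MEL1.

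The spread of LIN28A input reads over its peaks differed between the lines at S0. The peak at 2651 took 49.9% and 47.5% of them in MEL1 at S0, against 22.2% and 20.9% at S3, 26.2% and 36.1% at S4 and 27.8% and 25.1% at S6. In H1 the same share ran from 30.2% to 35.3% over all 8 preparations. The 2 MEL1 S0 values were the highest of the 16 and did not overlap with the rest, and no test of peak usage was made. The peaks at 401 and 701, earlier in the listed order, held 16.7% and 16.1% of the input reads in the first MEL1 S0 preparation and 39% and 26.6% in the first one at S3.

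LIN28B had log2 ratios of -0.78 and -0.86 in H1 at S0, -1.33 and -1.42 at S3, -2.65 and -1.94 at S4 and -1.81 and -1.76 at S6. In MEL1 they were -0.47 and -0.74 at S0, -1.43 and -1.72 at S3, -1.18 and -1.03 at S4 and -2.33 and -2.10 at S6. In both lines every later value lay below the S0 values, although the order of S3, S4 and S6 differed. The median at S0 was above 17.1% of genes and that at S6 above 11.1%.

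Almost all reads of LIN28B came from 1 peak, at position 751, which held 78.5% to 90.5% of its input reads and 78.7% to 97.4% of its IP reads. The other 4 peaks had 0 to 79 input reads in a library. At 751 the fitted IP over input was -1.12 at S0 (SE 0.35), -1.46 at S3, -2.04 at S4 and -2.18 at S6 (SE 0.36), each below input past the thresholds. Its change at S6 against S0 was -1.06 (SE 0.49, adjusted p = 0.345 from edgeR), which was not called over both lines, while in MEL1 alone the change of -1.46 was called (adjusted p = 0.0228) and in H1 alone it was -0.91 (adjusted p = 0.0202), under 2-fold.

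By the plain CPM ratio, L1TD1 was the only one of the 3 genes with more IP than input in every preparation. Its log2 ratio in H1 was 1.43 and 1.36 at S0, 1.36 and 1.37 at S3, 0.82 and 1.06 at S4 and 0.33 and 0.52 at S6. In H1 S0 and S3 were nearly equal, and S4 and then S6 lay lower without overlap. In MEL1 it was 2.14 and 2.54 at S0, 0.35 and 0.60 at S3, 2.78 and 2.45 at S4 and 1.07 and 0.83 at S6. The MEL1 values were thus lower than at S0 at S3 and S6 and near the S0 values at S4, where the gene had 77 and 88 input reads and the IP libraries were the shallowest. The median ratio was above 58.9%, 46%, 76.7% and 39.5% of genes in the order of the stages. In the fit over both lines, with TMM factors, L1TD1 was not called above input at any stage (0.94 at S0, SE 0.62, adjusted p = 0.185, edgeR), and the fitted value was -0.30 at S6. In MEL1 alone it was called above input at S0 (1.29, SE 0.19, adjusted p = 2.7e-05, edgeR) and at S4 (1.55, SE 0.21), where 31.2% and 23% of all genes were called above, and the values at S3 and S6 were -0.39 and -0.23. In H1 alone the values were 0.34, 0.43, 0.56 and -0.28 in the order of the stages, under 2-fold and not called.

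Within L1TD1 the peak at 1651 held the largest share of IP reads, 46.7% and 47.6% in H1 at S0 and 35.3% and 35.5% in MEL1 at S0. Its share of the input reads in these libraries was 28.5% and 28.4% in H1 and 21.8% and 26.7% in MEL1. Its log2 ratio at S0 was 2.15 and 2.11 in H1 and 2.84 and 2.96 in MEL1, and the median was above 84.4% of all peaks. The peak at 2451 came next, with 1.88 and 1.76 in H1 and 2.67 and 3.19 in MEL1, above 80.9% of all peaks. The remaining 6 peaks had medians from 0.77 upwards, against 0.54 over all peaks.

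These 2 peaks, at 1651 and 2451, were the ones of L1TD1 called above input at S0 (2.13 and 2.04 on the fitted log2 scale, SE 0.56 and 0.61), where 30.7% of all peaks were called above. They were again the 2 called above input at S3 and at S4, where 30.3% and 20.8% of all peaks were, and at S6 only 1651 was (1.33, SE 0.57, adjusted p = 0.0454, edgeR), with 28.4% of all peaks called above. At S3 and S4 the lines differed at the peak at 2451, with 1.68 in H1 and -0.28 in MEL1 at S3 and 0.13 in H1 and 3.53 in MEL1 at S4. At S6 the L1TD1 peak at 1151 was called below input (-3.08, SE 1.35, adjusted p = 0.0496, edgeR). The whole gene then had 48 to 140 input reads a library, so this call rests on few reads. As the transcript became scarce, the share of IP reads in 1651 was 50.9% to 77.3% in H1 at S3, S4 and S6 and 63.4% to 67.8% in MEL1 at S3 and S6, while in MEL1 at S4 it was 28.2% and 42.4%. Its input share after S0 was 26.1% to 41.7%, so these shares rest on 20 to 112 input reads a library.

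**Figure D4:**
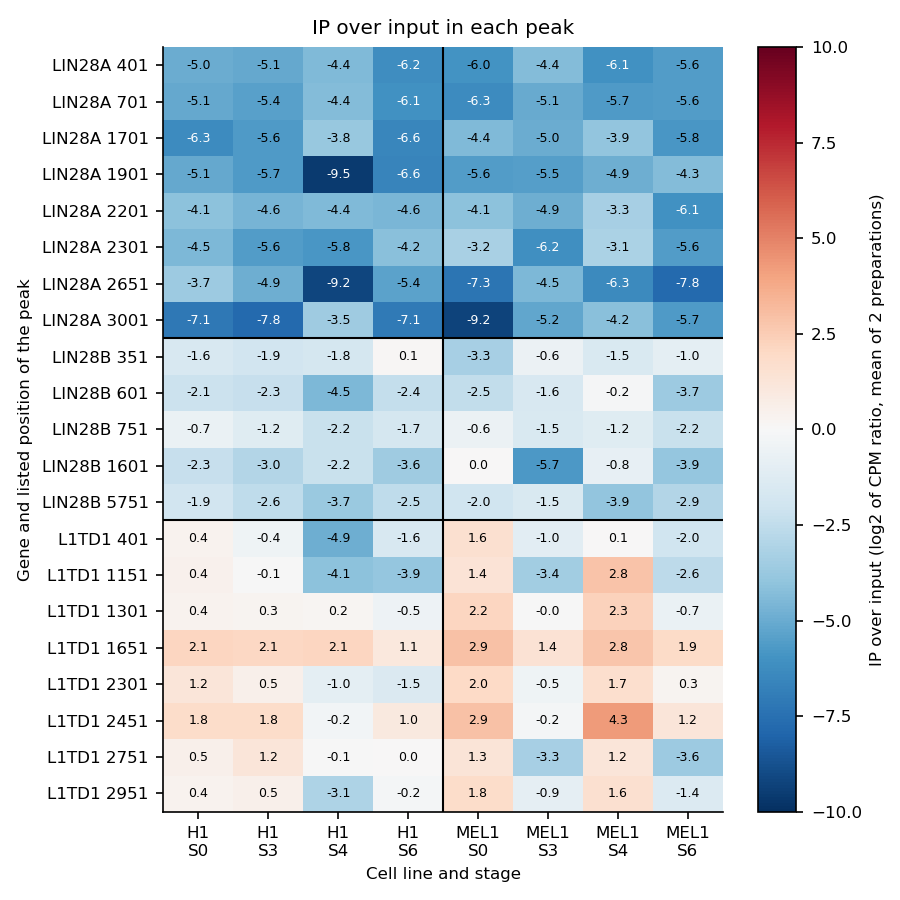
Log2 ratio of IP CPM to input CPM in each of the 21 peaks (rows, by gene and listed position) in each line and stage (columns). Each cell gives the mean of 2 preparations, blue below 0 and red above 0. LIN28A is blue throughout, and the L1TD1 peak at 1651 is red in all 8 columns.

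Changes of m6A between stages were tested as the change in IP beyond the change in input. Summed over the peaks of a gene, 0 of the 3 genes were called over both lines in any of the 5 comparisons with edgeR, and DESeq2 also called 0. The spread in these fits also holds differences between the lines. For L1TD1 at S3 against S0 the SE was 0.87 over both lines, against 0.18 in H1 alone and 0.28 in MEL1 alone. Of all genes 0.201% were called at S3 and 6.47% at S4 and 0.852% at S6, each against S0, and 1.53% from S3 to S4 and 4.41% from S4 to S6. At an unadjusted p under 0.05 the count was 1 of 3 at S6 against S4 (LIN28A) and at S6 against S0 (LIN28B), and 0 in the other comparisons.

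The largest changes over both lines were for L1TD1 at S6 against S4, -1.41 (SE 0.89), for LIN28A in the same step, -1.34 (SE 0.65), and for LIN28B at S6 against S0, -1.33 (SE 0.50). The IP and input libraries of a preparation are paired, and a term for each preparation brought 2 of these to a call. With that block L1TD1 at S6 against S4 was -1.48 (SE 0.36, adjusted p = 0.0333) and LIN28B at S6 against S0 was -1.29 (SE 0.26, adjusted p = 0.0297), both from edgeR. The blocked fit called 6.18% and 1.99% of all genes in these comparisons.

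Within the lines, more genes passed. In MEL1 alone, L1TD1 m6A fell by 1.69 at S3 against S0 (SE 0.28, adjusted p = 0.003, edgeR) and the LIN28A value rose by 1.30 (SE 0.32), while 6.61% of all genes were called. For LIN28A both libraries fell, IP from a mean of 16.1 to 4.9 CPM (58 and 77 reads at S3) and input from 907 to 126 CPM. The rise is thus a smaller fall in IP than in input, and IP stayed far below input at both stages. From S3 to S4 in MEL1 L1TD1 rose by 1.94 and LIN28A fell by 2.33 (5.06% of all genes called), but LIN28A then had 2 IP reads in each library. From S4 to S6 in MEL1 L1TD1 fell by 1.78 and LIN28B by 1.22 (5% of all genes called). At S6 against S0 LIN28B fell by 1.76 and L1TD1 by 1.53 in MEL1 (9.88% of all genes called). In H1 alone LIN28A fell by 1.04 at S6 against S0 (SE 0.31, adjusted p = 0.0467, 5.26% of all genes called) and by 1.17 from S4 to S6, where 36.4% of all genes were called. In H1 at S6 against S0 L1TD1 was at -0.62 (adjusted p = 0.0914) and LIN28B at -0.61 (adjusted p = 0.104).

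The difference between the lines in these m6A changes was tested after the values of each line had been seen. At S3 against S0 the MEL1 change minus the H1 change was 2.22 for LIN28A (SE 0.43, adjusted p = 0.0022) and -1.53 for L1TD1 (SE 0.34, adjusted p = 0.0072), both called by edgeR in a comparison that called 10.4% of all genes. For LIN28B it was -0.10 (SE 0.36). The LIN28A value compares ratios with far less IP than input in both lines. At S4 and S6 against S0 none of the 3 genes was called (28.3% and 6.33% of all genes), and 0 and 2 of them, LIN28A and LIN28B at S6, had an unadjusted p under 0.05 with edgeR.

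Of the single peaks, 0 of 21 were called over both lines at S3 against S0 (background 0.0498%), 2 from S3 to S4 (6.6%), 1 from S4 to S6 (7.58%), 2 at S4 against S0 (11.3%) and 0 at S6 against S0 (1.26%). With a term for each preparation the counts were 1 from S3 to S4 (7.29%), 2 from S4 to S6 (6.82%), of which 1 was an L1TD1 peak, and 3 at S4 against S0 (10.9%), of which 1 was a LIN28B peak. In the comparisons with 0 calls, 1 and 4 peaks had an unadjusted p under 0.05 with edgeR, and DESeq2 called 0 in both. Without that term all of the called peaks belonged to LIN28A. The peak at 1901 gave -4.38 at S4 against S3 (SE 1.37, adjusted p = 0.0705, edgeR), -4.25 at S4 against S0 and 4.91 at S6 against S4. The peak at 2651 gave -2.92 at S4 against S3, and that at 3001 gave 4.72 at S4 against S0.

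These calls rest on few reads. At 1901 the IP libraries had 13 and 16 reads in H1 at S0, 7 and 11 at S3, 0 and 0 at S4 and 2 and 1 at S6. At 2651 the H1 S4 libraries had 0 and 11 IP reads against 54 and 70 at S3, with 405 and 548 input reads at S4. The 2 H1 S4 IP libraries were also the ones with more empty peaks than the other H1 libraries, and without H1_S4 replicate 1 none of the 21 peaks was called in any comparison with S4. In L1TD1 at H1 S4 the peaks at 401 and 1151 had 0 to 1 IP reads while 1651 had 613 and 621. The part of these libraries in the S4 differences was not tested.

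Other single preparations also decided these counts. From S3 to S4 the count of 2 was 0 without either H1_S3 replicate or without MEL1_S3 replicate 2, and 1 without H1_S4 replicate 2, MEL1_S3 replicate 1 or MEL1_S4 replicate 1. From S4 to S6 the count of 1 was 0 without H1_S4 replicate 2 or MEL1_S6 replicate 1 and 2 without MEL1_S4 replicate 2. At S4 against S0 the count of 2 was 1 without H1_S4 replicate 2 and 4 without MEL1_S4 replicate 2.

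Fitted within 1 line, more of the 21 peaks passed, as did more of all peaks. In H1 alone 1 peak was called at S3 against S0 (6.09% of all peaks), 9 from S3 to S4 (46.2%), 9 from S4 to S6 (41.6%), 11 at S4 against S0 (45.9%) and 3 at S6 against S0 (10.8%). The 3 H1 counts that involve S4 stand beside backgrounds in which a large part of all peaks was called. In MEL1 alone 7 were called at S3 against S0 (8.8%), 5 from S3 to S4 (12.7%), 4 from S4 to S6 (11.5%), 0 at S4 against S0 (3.6%) and 5 at S6 against S0 (10.9%). The comparison with 0 calls had 2 peaks at an unadjusted p under 0.05 with edgeR, and DESeq2 was not run within a line. In MEL1 at S6 against S0, 4 of the 5 belonged to L1TD1 and all 4 were lower, and from S4 to S6 all 4 were L1TD1 peaks that were lower. Over all its peaks L1TD1 had 77 and 88 input reads in MEL1 at S4 and 140 and 124 at S6, so these calls also rest on few reads.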

How the data were processed

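With genes from Ensembl annotation version 94 split into 50-bp bins for read counting, the authors called and merged m6A peaks with MeRIPtools, and deposited raw counts per merged peak for 32 libraries. The aligner, the genome build and the peak calling settings are not given in the sources used here. The design assumed counts per gene, so a gene is the sum over its merged peaks, and genes without one were not analysed here. The table pairs no chromosome position with a peak, and no sequence of the member genes was used.

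Counts were fitted in R 4.3.3 with edgeR 4.0.16 (quasi-likelihood, TMM), with DESeq2 1.42.0 as an alternative. Expression was modelled on stage and cell line over 16 input libraries, the difference between lines on a separate mean for every stage of a line, and m6A on the interaction of stage with library type over 32 libraries. Features with a total of at least 10 were tested (7973 genes for expression, 7978 genes and 26104 peaks for m6A). A call was a change of 2-fold or more with a p under 0.1 after Benjamini-Hochberg adjustment. A standard error is the log2 change over the square root of F. The fits were run on simulated counts, which held no difference between lines, stages or library types beyond the added changes. Differences between the lines that a fit leaves out were therefore not checked. Ratios per preparation add 0.5 to each count. Median depth was 4318760 counts for input and 13100407 for IP.

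The named genes were all members, at most 6 genes of a list by mean input count, and the 3 genes most correlated with each member (log2 CPM, prior count 1), while called genes outside this rule are marked as named after their values were seen. The members and lists were chosen with earlier results of these data known. The IP and input libraries of a preparation share its label, which pairs them. Alternatives were other normalizations and filters, no cell line, replicate blocks, each line alone, MEL1 alone with a replicate block (added after the data were seen) and each preparation left out.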

Additional observations from a re-analysis of the deposited data

Results flagged for a closer look

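The change in input level differed between the lines. As the MEL1 change minus the H1 change from S0, the difference at S3 was -2.58 for LIN28A, -2.29 for LIN28B and -2.87 for L1TD1 on the log2 scale. At S4 it was -2.37 for LIN28A and -1.62 for LIN28B, and at S6 it was -1.05 for LIN28B. The change in m6A at S3 against S0 also differed between the lines, by 2.22 for LIN28A and by -1.53 for L1TD1. LIN28A had far less IP than input in both lines at both stages. The m6A test was added after the values of each line had been seen, and the cause of these differences was not tested.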

How the results depend on the processing

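Over both lines, the count of members called for expression stayed within 1.5 times its value under DESeq2, RLE factors, other filters, no cell line, the replicate block of line and number, the peak with the most reads alone and library sizes without mitochondrial transcripts. Deviations of same-numbered preparations from their group means correlated from -0.056 to 0.24 over 10 pairs of stages in input, above 0.1 in every MEL1 pair and in no H1 pair, a hint from the data that numbers pair input preparations in MEL1. For the log2 ratio of IP to input the range was -0.16 to 0.39, and 1 MEL1 pair of stages was above 0.1 (S0 with S3), so the ratios did not show this pairing. The replicate block over both lines changed no expression call, and in MEL1 alone, added after this check, it changed no call of a gene in expression or m6A. There 6 peaks were called for S3 against S0 and 4 for S4 against S3, each without LIN28B 1601. Fitted in H1 alone the count was 1 for S3 against S0, 1 for S4 against S3 and 2 for S6 against S4. Leaving out 1 preparation gave 3 to 3 at S3 and S4 against S0, 2 to 3 at S6 against S0 and 0 to 0 between later stages, and for the difference between lines 3 to 3, 2 to 3 and 0 to 2 at S3, S4 and S6.

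For m6A of genes, the replicate block of preparations called 1 member for S6 against S4 and 1 for S6 against S0, as did H1 alone, while MEL1 alone called 2 in each comparison but S4 against S0. LIN28A at S4 against S3 turned to -2.33 in MEL1 alone. Leaving out 1 preparation gave 0 to 0.

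For the 21 peaks at S4 against S3, the count was 1 under DESeq2 and under either replicate block and 0 with RLE factors, without the cell line or with TMM within library type. At S6 against S4 it was 3 under DESeq2 and 2 with the replicate block of preparations. In H1 alone it was 1, 11 and 3 for S3, S4 and S6 against S0 and 9 in both later steps, and in MEL1 alone 7, 0 and 5 against S0 and 5 and 4 in the later steps. In H1 alone LIN28A 2651 turned to -1.18 at S3 against S0, L1TD1 401, 1151 and 2451 to -4.34, -3.90 and -1.56 at S4 against S3, L1TD1 401 to 3.35 at S6 against S4, and LIN28B 601 and L1TD1 1151 to -2.01 and -4.34 at S4 against S0. L1TD1 401 at S4 against S3 ran from -3.89 (without MEL1_S4 replicate 2) to 1.37 when 1 preparation was left out. Leaving out 1 preparation gave 0 to 2 in each later step, 0 to 4 for S4 against S0 and 0 to 0 otherwise. Peaks with a fitted IP over input above 0, called or not, numbered 5 at S6 in H1 alone (2 over both lines) and 3 at S3 in MEL1 alone (6 over both lines), and in each of these single-line fits only L1TD1 1651 was called above input. DESeq2 moved the median m6A change of all peaks by 0.48 at S4 against S3 and by 0.47 at S4 against S0. The causes were not tested, and at S4 the depth of the MEL1 IP libraries and 2 IP reads of LIN28A limit what m6A values can show.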
